A study of Homo sapiens with 7 samples.

Results

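The loci of 4 SOX genes, SOX9, SOX4, SOX11 and SOX17, were described in chromatin of human cells on the way to pancreas. A locus was taken as the gene span on hg19 with 200 kb on each side, and a region of a deposited peak list belonged to it when its midpoint lay inside. By this rule the loci held 101 of the 86081 listed regions: 79 of 64919 for HNF6 on day 10, 0 of 250 for HNF6 on day 5, 11 of 6285 for GATA6 on day 10 and 11 of 14627 for NKX6.1 on day 13. The lists come from chromatin immunoprecipitation and sequencing of CyT49, a human embryonic stem cell line, during its differentiation in vitro. Chromatin was taken on day 10 from NKX6.1-positive pancreatic progenitors, on day 5 from gut tube endoderm, and on day 13 at a stage given only as PP. No genetic change or added agent is named in the labels for any group, and the groups differ in day and antibody. That they otherwise shared 1 differentiation protocol is not shown by this. The titles of the day 13 samples do not name CyT49, unlike those of days 5 and 10. The shortest NKX6.1 region was 76 bp, against 175 bp or more in the other lists. Each factor and day had 1 library, so nothing below could be checked against replicates, and no test was run. The day 5, 10 and 13 inputs (3 samples) were not analysed here. An NKX6.1 antibody is the only antibody in the extraction protocols, also for the HNF6 and GATA6 samples, while titles and antibody characteristics name the factor used here. The title of the day 5 factor sample gives HNF without a number, and it was taken as HNF6.

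SOX proteins are transcription factors that bind and bend DNA through an HMG box, and they are grouped by the likeness of that box. SOX9, of group E, maintains pancreatic progenitors in the mouse, marks duct cells later on, and is known for enhancers that lie far from the gene in a stretch poor in other genes. SOX4 and SOX11 are close relatives of group C, and Sox4 is needed for normal endocrine cell formation in the mouse pancreas. SOX17, of group F, is a regulator of definitive endoderm. HNF6 (ONECUT1), GATA6 and NKX6.1 are transcription factors of the early pancreas. Occupancy near a gene does not show that the gene is controlled from there, and expression was not measured here.

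HNF6 on day 10 was densest around SOX4. The window of SOX4 held 31 HNF6 regions, that of SOX11 held 19, that of SOX9 held 18 and that of SOX17 held 11. Over all chromosomes, windows as long as that of SOX4 held a median of 9 HNF6 regions, with quartiles of 5 and 12. Only 23 of 6907 such windows, or 0.333%, held 31 or more. For SOX9, 8.65% of windows of its length held as many HNF6 regions or more, for SOX11 7.19% and for SOX17 35.2%. Together the 4 loci held 48.7 HNF6 regions per Mb, against 21.3 per Mb over the whole list.

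**Figure D1:**
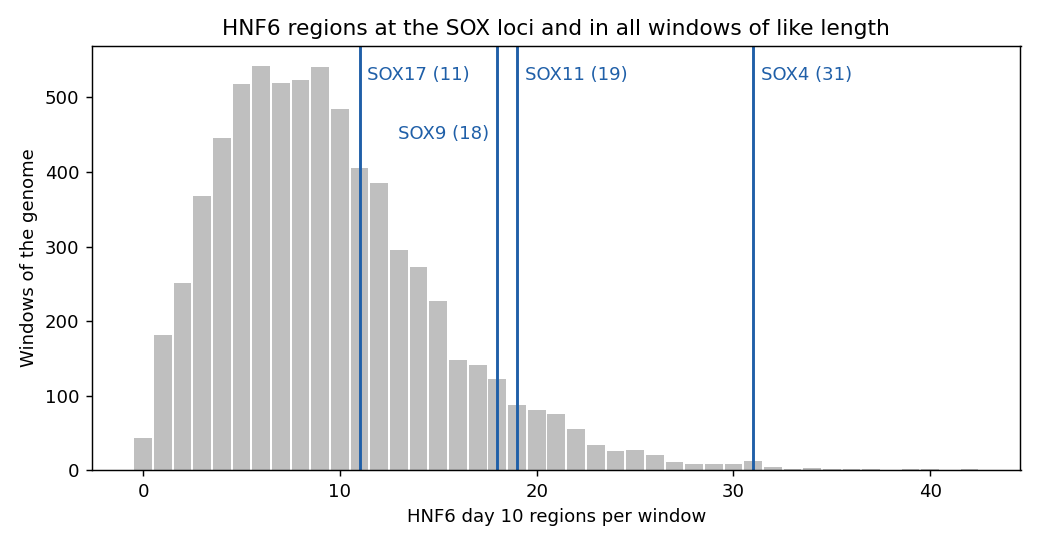
Number of HNF6 regions of day 10 at each SOX locus (blue lines, count in brackets) and in 6888 genome windows of 405 kb, the length of the SOX9 locus (grey bars, number of windows on the y axis). The SOX4 count of 31 lies in the far tail, SOX9 (18) and SOX11 (19) lie above the upper quartile of 12, and SOX17 (11) lies below it.

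The other lists gave few regions per locus. GATA6 had 3 listed regions at SOX9, 3 at SOX4, 4 at SOX11 and 1 at SOX17. The median was 1 listed GATA6 region per genome window of these lengths. As many or more were held by 3.36% of windows for SOX11, 9.14% for SOX4, 9.49% for SOX9 and 53.1% for SOX17. All 6285 regions of the GATA6 list overlapped an HNF6 region of day 10. Windows rich in HNF6 regions thus offer more places for a listed GATA6 region. These GATA6 shares are therefore not separate from the HNF6 counts. NKX6.1 had 4 regions at SOX9, 4 at SOX4, 2 at SOX11 and 1 at SOX17, against a median of 2 per window for each window length. For NKX6.1, 19.7% of windows held as many or more for SOX9, 19.8% for SOX4, 56.9% for SOX11 and 80.8% for SOX17. The GATA6 list was partial, since its peak numbers ran to 19404 and 32.4% of them were listed. Between the listed GATA6 peaks of the SOX11 locus 5 peak numbers were missing, and 1 was missing at SOX4. As peak numbers followed position, those peaks lay at these loci and were not analysed here.

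No HNF6 region of day 5 lay at any of the 4 loci. The whole day 5 list held so few regions that 96.7% of genome windows of these lengths held none, and its average density would put 0.133 regions in the 4 loci together. Of the 79 day 10 regions of HNF6, 0 were also in the day 5 list, against 0.347% of the day 10 list. The nearest day 5 region was 792 kb from SOX9, 3122 kb from SOX4, 6497 kb from SOX17 and 38382 kb from SOX11. Whether HNF6 was absent from the SOX loci on day 5 cannot be told from so short a list.

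The authors' peak score was used only as a percentile within its own list, with 0 the weakest and 100 the strongest. At the 4 loci HNF6 regions of day 10 spanned almost the whole range, from percentile 2.93 to 99.3, with a median of 52.9. Of the 79 regions, 15 (19.0%, Wilson 95% interval 11.9 to 29.0) were in the highest score decile, which holds 10% of the list, and 12 (15.2%, 8.91 to 24.7) were in the lowest, which holds 9.16%. These intervals cover counting error only, and neighbouring regions of a locus are not independent. SOX4 held 7 of the regions in the highest decile, SOX9 held 5, SOX11 held 2 and SOX17 held 1. Another HNF6 midpoint lay within 10 kb of 55 of the 79 regions (69.6%, 58.8 to 78.7), and of 49.2% of the list. By locus this was 17 of 19 regions at SOX11, 25 of 31 at SOX4, 11 of 18 at SOX9 and 2 of 11 at SOX17, so SOX17 regions were the most scattered. A neighbour is likelier where a window holds more regions, so these shares are not separate from the counts.

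**Figure D2:**
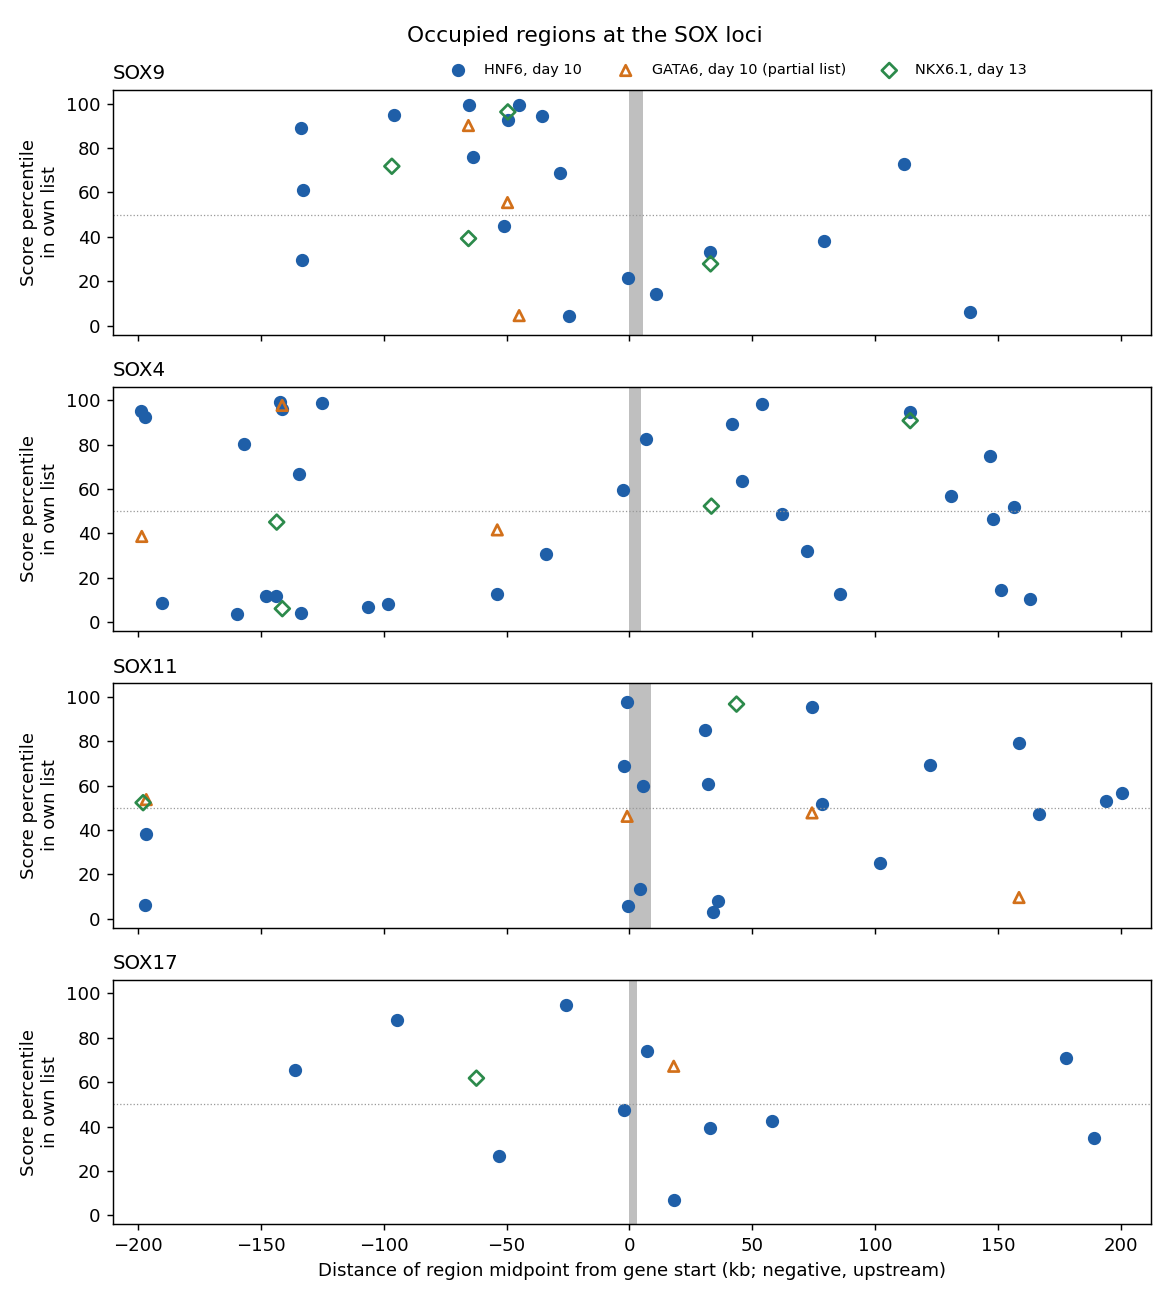
All regions at the 4 loci, by distance of the midpoint from the gene start (x axis, kb, upstream negative) and by score percentile within their own list (y axis, dotted line at 50). Grey marks the gene span. The HNF6 regions of SOX9 in the highest decile all lie upstream, those of SOX4 lie on both sides and away from the gene, and that of SOX11 at percentile 97.4 lies beside the gene start.

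At SOX9 the strong HNF6 regions lay upstream of the gene. Of the 18 regions, 13 lay upstream and 5 downstream, and all 5 regions in the highest decile were between 95.8 and 35.5 kb upstream of the gene start. The strongest, on chromosome 17 at 70051257 to 70052195 (939 bp), lay 65.4 kb upstream and had a score of 1768, rank 450 of the list and percentile 99.3. The next, at 70072030 to 70072850 (821 bp), lay 44.7 kb upstream with a score of 1658 and percentile 99.2. Next by score was the region at 70021156 to 70021556, 95.8 kb upstream, with a score of 670 and percentile 95.1. A run of 6 HNF6 regions, each within 10 kb of the next, covered 26.4 kb from 51.2 to 24.7 kb upstream and held 3 of the 5 regions in the highest decile. Downstream of SOX9 the highest HNF6 score was 154, at percentile 72.9, in a region 112 kb from the gene start.

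Close to the SOX9 start HNF6 occupancy was weak. The nearest region, at 70116395 to 70116599, had its midpoint 0.664 kb upstream, a score of 44 and percentile 21.6. It was the only HNF6 region within 10 kb of the start.

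GATA6 and NKX6.1 were listed at the same upstream stretch of SOX9. All 3 listed GATA6 regions lay 65.5 to 44.9 kb upstream and overlapped HNF6 regions of the highest decile. In the region 65.4 kb upstream, GATA6 (70051407 to 70051924) had a score of 515 and percentile 90.1, and NKX6.1 (70051654 to 70051752) had a score of 45 and percentile 39.3. In the region 49.5 kb upstream, HNF6 (70067527 to 70067837) had a score of 493 and percentile 92.5. There NKX6.1 (70067620 to 70067787) had a score of 282 and percentile 96.3, and GATA6 (70067448 to 70067697) had a score of 119 and percentile 55.4. In the region 44.7 kb upstream GATA6 (70072179 to 70072437) had a score of 26 and percentile 4.54, and no NKX6.1 region overlapped there. Each percentile ranks a region within its own list, and the lists differ in length, so percentiles do not rank the factors against each other.

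A further NKX6.1 region at SOX9 (70150151 to 70150226, score 36) overlapped a weak HNF6 region 33.0 kb downstream of the gene start (score 57, percentile 33.2). The last NKX6.1 region (70020456 to 70020569, score 81, percentile 71.8) overlapped no HNF6 region. Its midpoint was 844 bp from that of the HNF6 region 95.8 kb upstream.

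At SOX4 the HNF6 regions were many, and the strong ones lay far from the gene. Of the 31 regions, 17 lay upstream and 14 downstream, and 20 lay over 100 kb from the gene start. The strongest, on chromosome 6 at 21451602 to 21452130 (529 bp), lay 142 kb upstream with a score of 1711 and percentile 99.2. The next, at 21468617 to 21469110, lay 125 kb upstream with a score of 1455 and percentile 98.9. Downstream, the region at 21647673 to 21648105, 53.9 kb from the gene start, had a score of 1257 and percentile 98.4. None of these 3 overlapped a listed GATA6 or an NKX6.1 region. A run of 9 HNF6 regions, each within 10 kb of the next, stretched over 34.5 kb from 160 to 125 kb upstream and held 3 of the 7 regions in the highest decile. Near the gene, HNF6 regions were moderate: at 21591287 to 21591635, 2.51 kb upstream, the score was 99 (percentile 59.4), and at 21600412 to 21600764, 6.62 kb downstream of the start, it was 236 (percentile 82.5).

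Regions of all 3 factors, with NKX6.1 from day 13, overlapped at SOX4 in that upstream run. The HNF6 region at 21452542 to 21452907, 141 kb upstream, had a score of 777 and percentile 96.1. It overlapped the strongest GATA6 region of the 4 loci, at 21452474 to 21452909, with a score of 1140, rank 150 of the GATA6 list and percentile 97.6. The NKX6.1 region there (21452723 to 21452800) was weak, with a score of 19 and percentile 6.12. This co-occupied region was a neighbour of the strongest HNF6 region of the locus, which overlapped no listed GATA6 and no NKX6.1 region. The 1 GATA6 peak number missing at SOX4 falls between the listed GATA6 regions 198 and 141 kb upstream. That stretch includes the strongest HNF6 region. Every listed GATA6 region of the genome overlapped HNF6 of day 10, and whether unlisted peaks do is not known. Absence of GATA6 at the strongest HNF6 region thus cannot be told from the partial list.

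The other partner regions of SOX4 were spread widely. GATA6 overlapped HNF6 199 kb upstream, where HNF6 (21395277 to 21395648) was at percentile 95.3 and GATA6 (21395478 to 21395696, score 77) at percentile 38.6. It also overlapped a weak HNF6 region 53.7 kb upstream (21540149 to 21540410, score 34, percentile 12.7), where GATA6 (21540028 to 21540409, score 84) was at percentile 41.6. Downstream, HNF6 of day 10 and NKX6.1 of day 13 overlapped 114 kb from the gene start, each in the highest score decile of its list. HNF6 (21707844 to 21708357) had a score of 649 and percentile 94.8, and NKX6.1 (21708131 to 21708292) had a score of 173 and percentile 90.8. The remaining NKX6.1 regions had no HNF6 overlap. The region at 21450420 to 21450547 (score 49) ended 49 bp from an HNF6 region, and that at 21627267 to 21627373 (score 56) had its nearest HNF6 midpoint 8.52 kb away.

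SOX11 had HNF6 and GATA6 next to the gene start. Of its 19 HNF6 regions, 5 lay upstream, 2 within the gene span and 12 downstream, and 5 lay within 10 kb of the start. The strongest, on chromosome 2 at 5831581 to 5832050 (470 bp), had its midpoint 0.984 kb upstream of the start with a score of 985 and percentile 97.4. A weak HNF6 region lay just beyond it, at 5832150 to 5832338, with a score of 26 and percentile 5.74. The same GATA6 region, at 5831543 to 5832210 (668 bp, score 94, percentile 46.1), overlapped both. HNF6 regions in the gene span were weaker, with a score of 35 at 5836930 to 5837323 and of 100 at 5838300 to 5838612.

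Apart from the start, HNF6 at SOX11 was strongest 74.2 kb downstream, in a region of 976 bp at 5906558 to 5907533 that was merged from 3 rows (highest score 687, percentile 95.3). It was the widest HNF6 region of the 4 loci and contained the whole of a GATA6 region (5906964 to 5907217, score 98, percentile 47.7). Next by score was the HNF6 region at 5863217 to 5863567, 30.6 kb downstream of the start, with a score of 279 and percentile 85.1. GATA6 also overlapped HNF6 159 kb downstream (HNF6 score 200, percentile 79.0, and GATA6 score 35, percentile 9.58) and 197 kb upstream (HNF6 score 62, percentile 38.1, and GATA6 score 115, percentile 53.7). Between 197 and 2.40 kb upstream, a stretch of 194 kb, no HNF6 region was listed. The longest distance between neighbouring HNF6 midpoints inside the window was 46.3 kb at SOX9, 44.7 kb at SOX4 and 119 kb at SOX17. At SOX9 the outermost 66.2 kb of the window upstream and 66.8 kb downstream also held no HNF6 midpoint.

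NKX6.1 at SOX11 lay apart from HNF6. The region at 5876310 to 5876450, 43.6 kb downstream of the start, was the strongest NKX6.1 region of the 4 loci, with a score of 299, rank 488 of its list and percentile 96.7. The nearest HNF6 midpoint was 7.71 kb away. The other, at 5634915 to 5634995 (198 kb upstream, score 56, percentile 52.3), lay 590 bp from the edge of an HNF6 region.

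At SOX17 occupancy was the sparsest of the 4 loci in each of the 3 lists with regions there. HNF6 had 27.3 regions per Mb there, against 21.3 per Mb over the list, with 5 regions upstream and 6 downstream. A single region was in the highest decile, on chromosome 8 at 55344340 to 55344649, 26.0 kb upstream, with a score of 657 and percentile 94.9. The next were at 55275711 to 55276485, 94.4 kb upstream (775 bp, merged from 2 rows, score 335, percentile 88.0), and at 55377536 to 55378110, 7.33 kb downstream of the start (score 162, percentile 74.0). The nearest to the start, at 55368144 to 55368341, lay 2.25 kb upstream with a score of 77 and percentile 47.5. GATA6 was listed once, 18.0 kb downstream of the start (55388349 to 55388691, score 171, percentile 67.1), over the weakest HNF6 region of the locus (55388481 to 55388672, score 28, percentile 6.89). The NKX6.1 region, at 55308179 to 55308333 (62.2 kb upstream, score 67, percentile 61.8), had its nearest HNF6 midpoint 9.27 kb away.

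Seen over the 4 loci, 12 of the 79 HNF6 regions overlapped a listed GATA6 region by at least 1 bp (15.2%, Wilson 95% interval 8.91 to 24.7), whereas 9.66% of the whole list did. NKX6.1 overlapped 5 of the 79 (6.33%, 2.73 to 13.97), against 3.2% of the list. Both overlapped 3 of the 79 (3.80%, 1.30 to 10.6), against 1.15% of the list. The list's shares of GATA6 and of NKX6.1 lie inside the intervals of the loci. The intervals here and below cover counting error only and treat neighbouring regions as independent, which they are not. They therefore cannot decide whether the SOX loci hold an excess of either. The list's share with both lies just below its interval, which rests on 3 regions, 2 of them at SOX9. With a reach of 500 kb the share with NKX6.1 was 3.21% (5 of 156 HNF6 regions), that of the list, and the share with both was 1.92%. By locus, GATA6 overlapped 5 of 19 HNF6 regions at SOX11, 3 of 18 at SOX9, 3 of 31 at SOX4 and 1 of 11 at SOX17. NKX6.1 overlapped 3 of 18 at SOX9, 2 of 31 at SOX4, 0 of 19 at SOX11 and 0 of 11 at SOX17. The intervals of the loci overlap widely in each case, and differences between loci were not tested.

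Counted from NKX6.1, 5 of the 11 regions at the loci overlapped HNF6 (45.5%, 21.3 to 72.0), whereas 14.3% of the NKX6.1 list did. With a reach of 500 kb, an alternative chosen after seeing the data, it was 5 of 25 (interval 8.86 to 39.1%), which includes the share of the list. All 5 were at SOX9 and SOX4. Of the 6 others, 3 had an HNF6 midpoint within 1 kb (interval 18.8 to 81.2%), as did 8.49% of all NKX6.1 regions without overlap. HNF6 was itself denser at SOX9, SOX4 and SOX11 than over its list, by 2.09, 3.60 and 2.19 times, and the part of this density in the overlap was not tested. A listed GATA6 region overlapped 3 of the 11 NKX6.1 regions (interval 9.75 to 56.6%), against 5.18% of the NKX6.1 list. These 3 are among the 5 that overlapped HNF6, so this is not a separate result. All 11 GATA6 regions overlapped HNF6, but so did 100% of the partial GATA6 list, so this count says nothing particular to the loci.

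**Figure D3:**
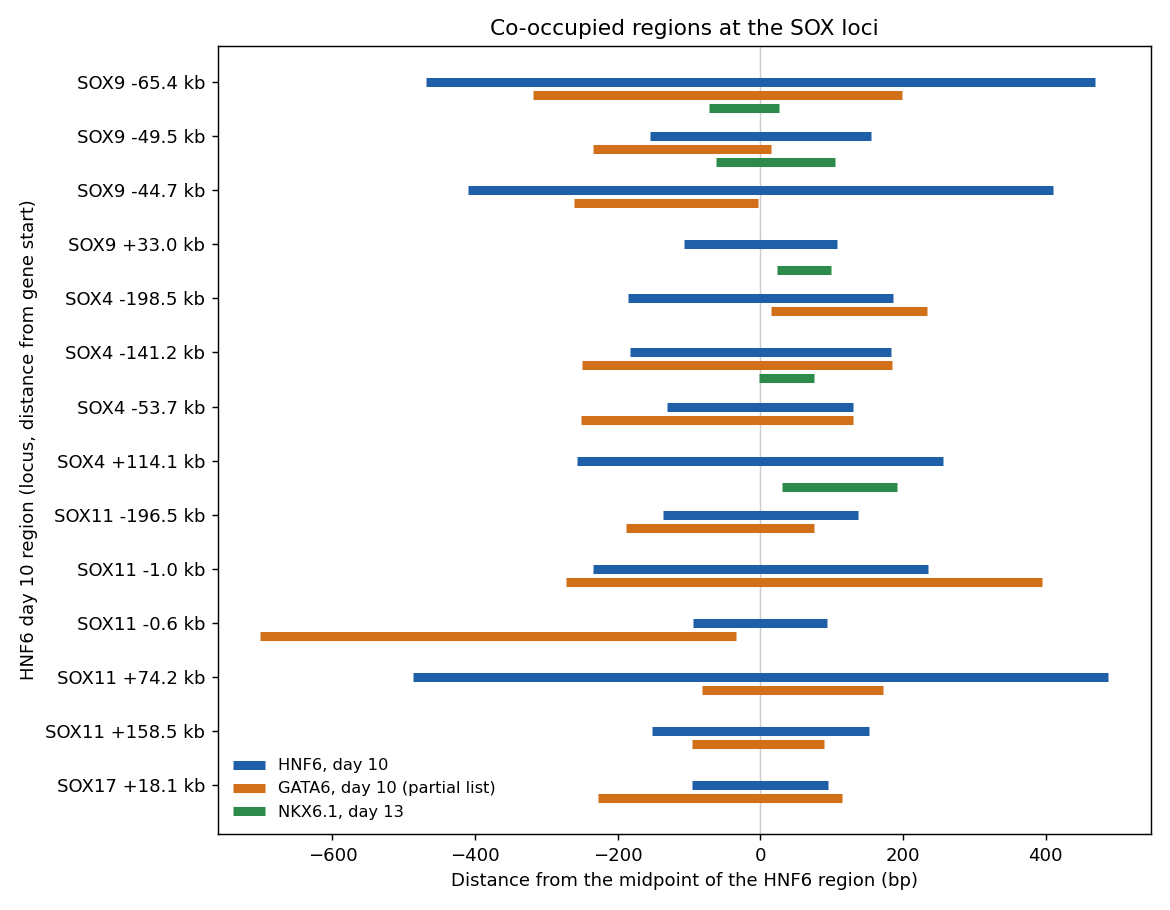
The 14 HNF6 regions of day 10 (blue) at the SOX loci that overlap a listed GATA6 (orange) or an NKX6.1 region (green), drawn to scale around the midpoint of the HNF6 region (x axis, bp) and named by locus and distance from the gene start. All 5 NKX6.1 regions lie wholly inside the HNF6 region, and the GATA6 region at the SOX11 start reaches over 2 HNF6 regions. NKX6.1 regions are the shorter, with a median of 99 bp over their list against 261 bp for HNF6. The share wholly inside over all pairs was not counted.

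The pairs were chosen by overlap, so their midpoints are close by construction, and the distances are given as a description. Midpoints of HNF6 and GATA6 regions were a median of 60.8 bp apart in the 12 pairs at the loci (range 3.5 to 367.5), close to the median of 63 bp over all pairs of these lists. For HNF6 and NKX6.1 the median was 37 bp in 5 pairs (21.5 to 111), against 55 bp over all pairs. The stretch common to all 3 factors was 99 bp long 65.4 kb upstream of SOX9 (70051654 to 70051752), 78 bp long 49.5 kb upstream of SOX9 (70067620 to 70067697), and 78 bp long 141 kb upstream of SOX4 (21452723 to 21452800).

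HNF6 regions with a listed partner had the higher median HNF6 score at SOX9, SOX4 and SOX11. At SOX9 the median percentile was 95.8 for the 4 regions with GATA6 or NKX6.1 and 53.0 for the 14 with neither. At SOX4 it was 95.04 for 4 regions with a partner and 48.6 for 27 without, and at SOX11 79.0 for 5 with a partner and 52.3 for 14 without. The groups overlapped at each of these loci. Weak HNF6 regions also had partners at all 3, and regions of the highest decile without a partner were found at SOX9 (2) and SOX4 (4) but not at SOX11, where the highest without a partner was at percentile 85.1. The single partnered region of SOX17, at percentile 6.89, was below all 10 others. Over the whole HNF6 list the medians were 81.1 with a partner and 46.8 without, so the difference is that of the list and not particular to the SOX loci.

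**Figure D4:**
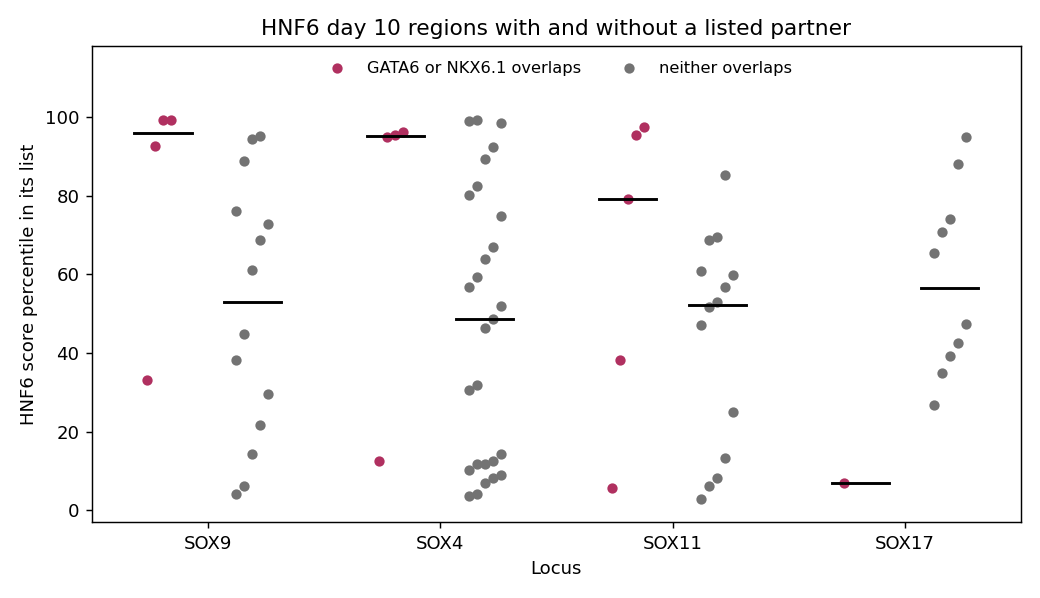
HNF6 score percentile (y axis) of each HNF6 region of day 10 by locus, for regions that overlap a listed GATA6 or an NKX6.1 region (red) and for those that overlap neither (grey); black bars are medians. At SOX9, SOX4 and SOX11 most red points are high but each has at least 1 low, and the only red point of SOX17 is at the bottom.

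Regions beyond the limit of 200 kb were not counted. For HNF6, the outermost region inside was 134 kb from the gene span at SOX9, 199 kb at SOX4, 197 kb at SOX11 and 186 kb at SOX17. The first region outside was 258 kb from SOX9, 223 kb from SOX4, 202 kb from SOX11 and 218 kb from SOX17, with percentiles of 65.5, 18.7, 33.2 and 66.1. In gene order on RefSeq GRCh38.p14, used for order alone, the nearest named protein-coding genes are KCNJ2 and SLC39A11 around SOX9, CDKAL1 and PRL around SOX4, DCDC2C and CMPK2 around SOX11, and MRPL15 and RP1 around SOX17. Regions were not placed in exons or introns, because no hg19 annotation was used here beyond the 4 gene spans.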

How the data were processed

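Groups were taken from the sample titles. Per the submitters' processing notes, Bowtie2 2.3.4.1, MACS2 2.1.1.20160309 and hg19 were used, with neither roles nor settings given. The authors deposited 1 peak list per library with position, name and a whole-number score for each. What unit the deposited score has, the cut-off and the use of inputs are not given in the sources used here, and read depth is unknown. A deeper library would list more regions, so counts were not compared between lists. Rows with the same coordinates were merged (highest score kept). Coordinates are 1-based. Percentiles give ties their mean rank. Regions that shared at least 1 bp were called overlapping (Python 3.11.15 with pandas 2.3.3 and numpy 2.4.6), and whole-list counts equalled those of bedtools 2.31.1. Wilson intervals came from statsmodels 0.14.6. Windows of each locus length were tiled along chromosomes up to the last listed position, and kept if they held any region. On simulated data, all 4 planted locus counts and 400 of 400 planted overlaps were recovered. Density per Mb is over the listed length of chromosomes 1 to 22, X and Y.

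Regions named are, per locus and list, the 3 strongest, the nearest to the gene start and those that overlap another list. A few others (the HNF6 regions in the SOX11 span, on the near downstream side of SOX4 and SOX17, the strongest downstream of SOX9, and those at the limit) were added after their values were seen. Members and lists were chosen with earlier results of these data known. Other SOX genes and motifs within regions were planned and not run, because no hg19 sequence or further hg19 annotation was used here.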

Additional observations from a re-analysis of the deposited data

How the results depend on the processing

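Counts follow the reach by construction. With 100 kb in place of 200 kb, the loci held 44 HNF6 regions of day 10, 7 GATA6 and 7 NKX6.1 regions, and 3 HNF6 regions overlapped NKX6.1 (3 of the 7 NKX6.1 regions overlapped HNF6, a count added after seeing the data). With 500 kb they held 156 HNF6, 18 GATA6 and 25 NKX6.1 regions, and 19 HNF6 regions overlapped GATA6 (12.2%). The number with NKX6.1 stayed at 5, or 3.21%, against 6.33% with 200 kb and 3.2% of the list, and 3 still had both, or 1.92%, against 3.80% with 200 kb. Above the median score of each list, 42 HNF6, 5 GATA6 and 7 NKX6.1 regions were left. Of those 42 HNF6 regions, 3 overlapped GATA6 (7.14%, against 7.76% of the list so limited), 2 overlapped NKX6.1 (4.76%, against 3.07%) and 1 overlapped both (2.38%, against 0.802%). With all lists limited in this way, the share with GATA6 at the loci was no higher than that of the list, on 3 regions. That limit also removes weak GATA6 and NKX6.1 regions. It thus does not give the share of the stronger HNF6 regions that overlap any listed GATA6 region. The HNF6 day 5 count was 0 under every setting run. The other alternatives (50% of the shorter region, midpoints within 200 bp, each row on its own) left counts within 1.5 times, and each median percentile stayed within the binomial interval of the median. No paired analysis was possible because each group had 1 library and no test was run.

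Unknown read depth and the partial GATA6 list limit what absence from a list can show.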

Other observations

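HNF6 regions of day 10 were also listed beyond the 200 kb limit, at all 4 loci. Over the whole list they averaged 21.3 per Mb. The counts from 200 to 500 kb were not set beside genome windows, so they single out no locus. Between 200 and 500 kb from the gene, 30 HNF6 regions of day 10 lay at SOX4, with 7 upstream and 23 downstream, against 24 at SOX9, 13 at SOX11 and 10 at SOX17. The strongest, on chromosome 6 at 22002675 to 22003200, lay 409 kb downstream of the SOX4 start with a score of 1827 and percentile 99.4, above every HNF6 region inside the 200 kb limit of the 4 loci. It overlapped a GATA6 region (score 185, percentile 69.4). Of the 77 HNF6 regions at these distances from the 4 genes, 0 overlapped NKX6.1, against 3.2% of the HNF6 list, and 0 of the 14 NKX6.1 regions there overlapped HNF6, against 14.3% of the NKX6.1 list. The regions are few, and differences from the lists were not tested. At SOX9 17 of the 24 lay upstream, the side that also held the strong regions nearer to the gene. The strongest of the 24, however, lay downstream, at 70620010 to 70620523. It was 503 kb from the gene start, with a score of 618 and percentile 94.4.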
